A study of Mus musculus with 11 samples.

Results

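Among the 1907 mature miRNA names counted in mouse brain small RNA libraries, 9 are widely used as reference miRNAs: mmu-miR-191-5p, mmu-miR-425-5p, mmu-miR-103-3p, mmu-miR-107-3p, mmu-miR-186-5p, mmu-miR-361-5p, mmu-miR-423-3p, mmu-miR-423-5p and mmu-miR-652-3p. The prefix mmu stands for mouse and is left out from here on. They were taken from the count tables by their names, with no threshold on a value, and all 9 passed the filter on low counts that left 479 miRNAs for testing. The libraries came from the brain cortex of male Balb/cOlaHsd mice, aged 3 months by the labels and up to a higher age by the methods. In the pMCAO group (5 libraries) the middle cerebral artery had been closed permanently, a model of ischemic stroke, and the tissue was collected after 3 days from the peri-ischemic cortex, which borders the lesion. The sham group (6 libraries) had sham surgery and the same interval; the labels give cortex as its tissue, while the methods call the tissue of both groups peri-ischemic. Every animal had been anaesthetised and operated, and names in the deposited data mark both groups as vehicle groups. The sham libraries held 1429037 to 2319810 miRNA counts and the pMCAO libraries 744877 to 1411620.

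A reference miRNA is a miRNA whose level is assumed to be the same in all samples, so that other miRNAs can be expressed as a ratio to it. Panels of such miRNAs are usually chosen because they are abundant, present in most tissues and little affected by the condition under study. Like other miRNAs, each of them guides Argonaute proteins to messenger RNAs that pair with its seed, which is bases 2 to 8 from the 5′ end. The arms of a hairpin are named 5p and 3p. Both arms of the miR-423 hairpin are in use as references.

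The mature sequences, from RefSeq (GRCm38.p6), are shown because their 5′ ends and one shared seed recur in the results. Capitals mark the seed.
miR-191-5p: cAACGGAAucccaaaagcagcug
miR-186-5p: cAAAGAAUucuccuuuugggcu
miR-425-5p: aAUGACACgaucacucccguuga
miR-103-3p: aGCAGCAUuguacagggcuauga
miR-107-3p: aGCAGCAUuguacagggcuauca
miR-361-5p: uUAUCAGAaucuccagggguac
miR-423-3p: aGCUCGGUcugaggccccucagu
miR-423-5p: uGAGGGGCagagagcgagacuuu
miR-652-3p: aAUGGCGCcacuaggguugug

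The 9 members have 8 seeds, because miR-103-3p and miR-107-3p share GCAGCAU. These miRNAs are both 23 bases long and differ by G22C, counted from the 5′ end of miR-103-3p. Reads that end before base 22 match both, and the sources used here do not say how reads with several matches were assigned. miR-191-5p and miR-186-5p are the members that start with C.

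Positions are from RefSeq (GRCm38.p6), on GRCm38, the build of the deposited data, and host genes are from the GENCODE vM21 annotation. The mature miR-191-5p lies at chr9:108568325-108568347 and miR-425-5p at chr9:108568789-108568811, both on the plus strand. Their hairpins are 384 bases apart and overlap exons of the long noncoding RNA gene 4833445I07Rik. The other hairpins lie in introns of protein-coding genes, on the strand of the host gene. The miR-103 and miR-107 family sits in the pantothenate kinase genes, with miR-103-3p made from a hairpin in Pank3 (chr11:35782396-35782481, plus strand) and another in Pank2 (chr2:131288052-131288137, plus), and miR-107-3p from a hairpin in Pank1 (chr19:34820687-34820773, minus). The hairpin of miR-186 lies in Zranb2 (chr3:157544279-157544349, plus), that of miR-361 in Chm (chrX:113074824-113074893, minus), that of miR-423 in Nsrp1 (chr11:77078064-77078172, minus) and that of miR-652 in Tmem164 (chrX:142739000-142739097, plus).

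Together the 9 miRNAs took 2.16% to 3.15% of the counts in sham libraries and 2.73% to 3.04% in pMCAO libraries. Their levels covered a wide range. In TMM-normalised CPM, which are counts scaled to a common library size and are the scale used for levels from here on, the sham means ran from 11728 for miR-191-5p and 11688 for miR-103-3p through 2054 for miR-107-3p, 744 for miR-652-3p, 565 for miR-186-5p, 490 for miR-361-5p, 364 for miR-425-5p and 184 for miR-423-3p down to 48.5 for miR-423-5p. TMM scaling sets each library's factor from the bulk of the miRNAs, so that a few that change strongly do not shift the rest. The order was the same in pMCAO. The ranges of miR-191-5p and miR-103-3p overlapped in both groups, as did those of miR-186-5p and miR-361-5p and those of miR-361-5p and miR-425-5p. Those of miR-652-3p and miR-186-5p overlapped in sham only, and all other neighbours in the order were apart in both groups.

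**Figure D1:**
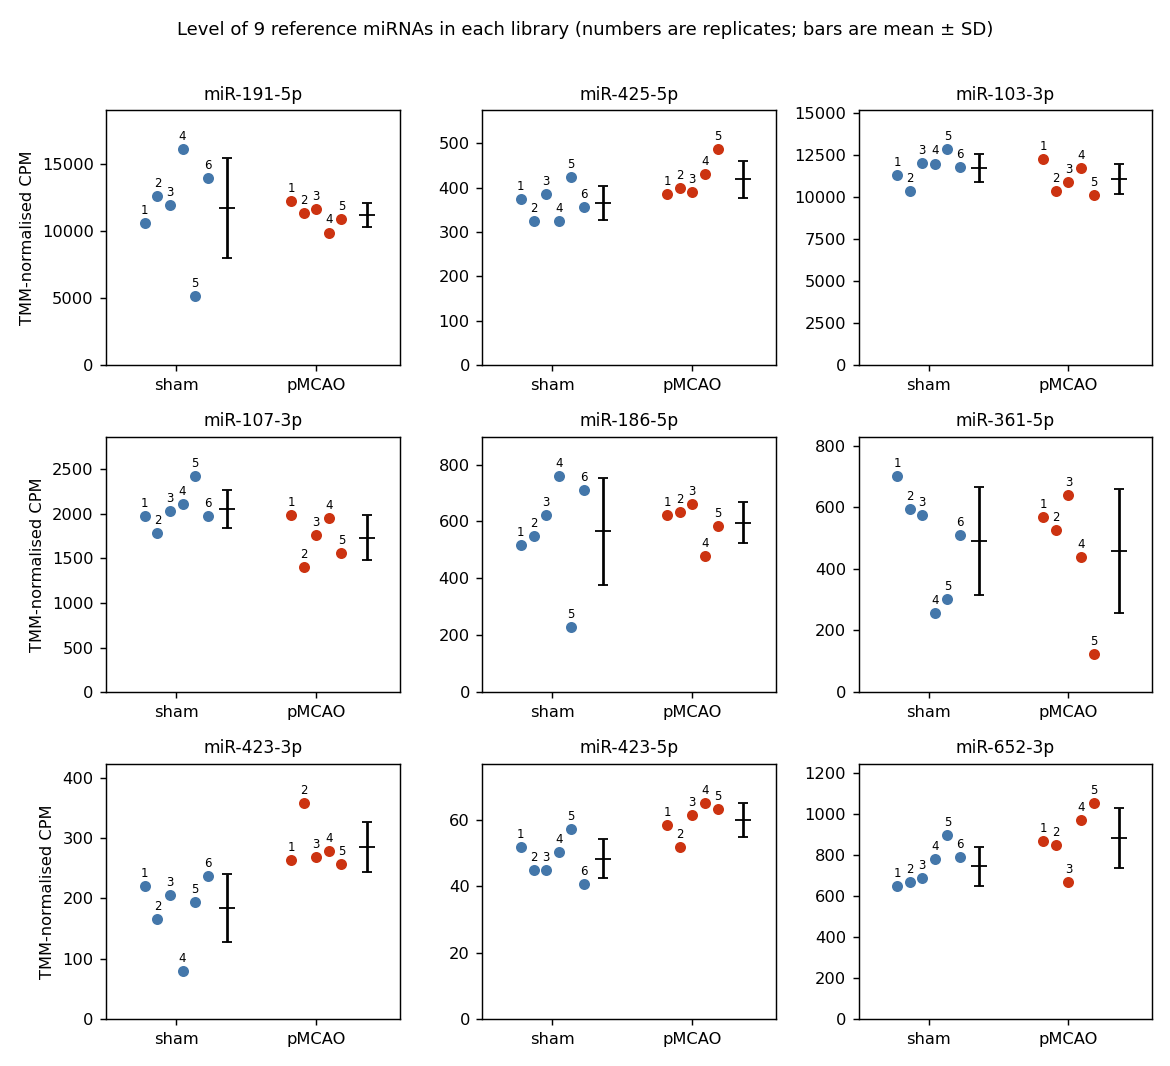
Level of each of the 9 reference miRNAs in TMM-normalised CPM (y axis, from 0) in the sham (blue, n = 6) and pMCAO (red, n = 5) libraries, with replicate numbers beside the points and the mean ± SD as bars. miR-103-3p stayed within 10107 to 12821 CPM over all 11 libraries, while sham replicate 5 was far below the others for miR-191-5p and miR-186-5p, sham replicate 4 for miR-423-3p, and pMCAO replicate 5 for miR-361-5p.

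The question asked of these miRNAs was whether their level differed between sham and pMCAO, and how evenly each was measured within a group. None of the 9 was called different under TMM scaling by edgeR's quasi-likelihood test at an adjusted p under 0.05, a test that called 7.10% of all 479 miRNAs (21 miRNAs or 4.38% higher and 13 or 2.71% lower in pMCAO, 34 together). At an unadjusted p under 0.05 the count was 2 of 9, against 24.4% of all miRNAs tested. DESeq2 called 0 of the 9 and 45 miRNAs in all. The members had a median log2 fold change of 0.08, beside 0.00 over all miRNAs tested, with 5 positive and 4 negative values. The 95% confidence interval lay within ±0.5 on the log2 scale for 3 members (miR-425-5p, miR-103-3p and miR-107-3p) and within ±1 for 8. For the others of the 9, a group difference larger than 0.5 is within the interval of these 11 libraries.

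miR-103-3p, the most even of the 9, measured 11275, 10338, 11981, 11975, 12821 and 11738 CPM in sham replicates 1 to 6. In pMCAO replicates 1 to 5 it measured 12262, 10362, 10893, 11694 and 10107 CPM. The groups overlapped, with pMCAO replicate 5 just below the lowest sham library, and the highest of all 11 values was 1.27-fold the lowest. The log2 fold change was -0.08 ± 0.09 (SE, 95% confidence interval -0.27 to 0.11, edgeR adjusted p = 0.672).

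Its relative miR-107-3p was lower throughout, at 1983, 1789, 2037, 2116, 2425 and 1974 CPM in the sham libraries. The pMCAO libraries gave 1986, 1400, 1767, 1959 and 1564 CPM. Of the 5 pMCAO libraries 3 were below every sham library, and the other 2 were inside the sham range. pMCAO differed from sham by -0.24 ± 0.12 on the log2 scale (SE, interval -0.50 to 0.01, edgeR adjusted p = 0.232).

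miR-425-5p, whose hairpin neighbours that of miR-191-5p, ranged from 324 to 423 CPM in sham (median 364). In pMCAO it measured 387, 398, 390, 431 and 486 CPM, with 2 libraries above all sham libraries. On the log2 scale the difference was 0.20 ± 0.11 (SE, interval -0.03 to 0.43, edgeR adjusted p = 0.274).

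miR-652-3p ranged from 648 to 894 CPM in sham (median 732) and measured 869, 846, 666, 970 and 1052 CPM in pMCAO. Here too 2 pMCAO libraries exceeded every sham library, while pMCAO replicate 3 was among the lowest values of either group. Between the groups the log2 difference came to 0.24 ± 0.13 (SE, interval -0.04 to 0.53, edgeR adjusted p = 0.288).

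miR-191-5p measured 10601, 12622, 11933, 16124, 5145 and 13945 CPM in sham replicates 1 to 6. The pMCAO libraries gave 12256, 11372, 11670, 9904 and 10937 CPM, all inside the sham range. Sham replicate 5 was at 40.8% of the median of the other sham libraries. The group difference was -0.06 ± 0.21 on the log2 scale (SE, interval -0.52 to 0.39, edgeR adjusted p = 0.942), and -0.21 without sham replicate 5.

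miR-186-5p measured 519, 547, 623, 759, 230 and 711 CPM in sham, and 621, 634, 661, 479 and 585 CPM in pMCAO. Sham replicate 5 stood apart again, at 36.9% of the median of the other sham libraries, and sham replicate 4 was again the highest. The log2 fold change of 0.08 ± 0.23 (SE, interval -0.42 to 0.57, edgeR adjusted p = 0.925) turned to -0.07 without sham replicate 5.

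miR-361-5p varied most within groups. It measured 701, 596, 575, 257, 301 and 510 CPM in sham, and 569, 525.7, 639, 437 and 123 CPM in pMCAO. The lowest pMCAO library, replicate 5, was at 22.5% of the median of the other 4, and sham replicates 4 and 5 were also low. Its fold change was -0.10 ± 0.35 on the log2 scale (SE, interval -0.85 to 0.65, edgeR adjusted p = 0.943), and 0.16 without pMCAO replicate 5.

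The arms of the miR-423 hairpin gave the highest positive values of the 9. miR-423-3p measured 221, 165, 205, 79.4, 194 and 237 CPM in sham, and 264, 358, 268, 279 and 257 CPM in pMCAO. The groups did not overlap, the only such case among the members under TMM scaling, where 7.52% of all tested miRNAs had no overlap. The fold change was 0.63 ± 0.22 on the log2 scale (SE, interval 0.17 to 1.10, unadjusted p = 0.0114), and edgeR's adjusted p was 0.0979. Sham replicate 4 was low, and without it the difference was 0.48.

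miR-423-5p ranged from 40.9 to 57.5 CPM in sham (median 47.8) and measured 58.4, 52.0, 61.6, 65.2 and 63.4 CPM in pMCAO. In all, 4 of the 5 pMCAO libraries were above every sham library. The difference was 0.32 ± 0.14 on the log2 scale (SE, interval 0.01 to 0.62, unadjusted p = 0.0441), with an edgeR adjusted p of 0.191. This miRNA rests on 44 to 98 counts a library.

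Total-count scaling, in which each library is divided by its own total and nothing else, moved all of these values upwards. Over all 479 miRNAs the median log2 fold change was 0.18 under total-count scaling, and over the 9 members it was 0.25, with 8 positive values and 1 negative. The members' median was thus above that of all miRNAs under both scalings, by less than 0.1. edgeR called 9.19% of all miRNAs, of which 43 (8.98%) were higher in pMCAO and 1 (0.209%) was lower. A single member was called: miR-423-3p, with a log2 fold change of 0.81 ± 0.23 (SE, interval 0.31 to 1.30, edgeR adjusted p = 0.0434). miR-423-5p, at 0.49 ± 0.15 (SE), had an edgeR adjusted p of 0.0555, and miR-425-5p, at 0.37 ± 0.12 (SE), one of 0.0707. At an unadjusted p under 0.05 there were 4 members (miR-423-3p, miR-423-5p, miR-425-5p and miR-652-3p), against 24.8% of all miRNAs. Both arms of miR-423 had no overlap between groups under total counts, against 7.10% of all miRNAs. The sign of miR-191-5p, miR-103-3p and miR-361-5p turned from negative under TMM to positive under total counts, each with an interval that spans 0 under both. The single call lay close to the threshold. When each library was left out in turn, miR-423-3p was called in 4 of 11 total-count fits, the one without sham replicate 4 included (edgeR adjusted p = 0.0367), and in 0 of 11 TMM fits. These TMM fits called 16 to 36 of all miRNAs. miR-423-3p lost the call without sham replicate 2, 3 or 5 or without pMCAO replicate 1, 2, 4 or 5, while its log2 fold change stayed between 0.65 and 0.93 in the 11 total-count fits. Other members were called in single total-count fits. These were miR-425-5p and miR-423-5p without sham replicate 5 (edgeR adjusted p = 0.0422 for each) and miR-652-3p without pMCAO replicate 3 (edgeR adjusted p = 0.0394). Without sham replicates 4 and 5 and pMCAO replicate 5 together no member was called under either scaling, with miR-423-3p at 0.50 under TMM and 0.67 under total counts. That TMM fit called only 11 of the 473 miRNAs it tested (2.33%), so the lack of a call says little about the members.

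**Figure D2:**
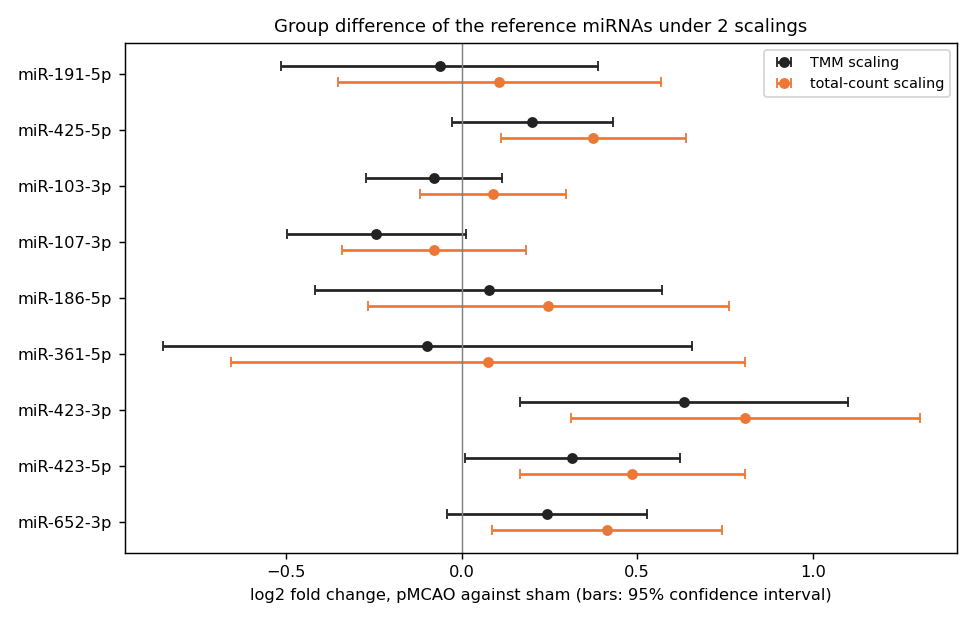
Log2 fold change of pMCAO against sham for each reference miRNA (x axis) with its 95% confidence interval, under TMM scaling (black) and total-count scaling (orange), both from edgeR with 6 sham and 5 pMCAO libraries. Every orange point is to the right of its black partner. The intervals of miR-423-3p and miR-423-5p exclude 0 under both scalings, and those of miR-425-5p and miR-652-3p under total counts only.

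The 9 members can also set the scale themselves. With library factors from their geometric mean, the median log2 fold change was -0.12 over all miRNAs and -0.03 over the members. edgeR then called 7.93% of all miRNAs (18 or 3.76% higher and 20 or 4.18% lower in pMCAO) and none of the members, with 2 of them (miR-107-3p and miR-423-3p) at an unadjusted p under 0.05 against 25.5% of all miRNAs. Of the members 2 had no overlap between the groups, against 7.31% of all miRNAs. The 9 miRNAs set this scale, so their own values under it are a description. Against TMM, the factor from the members differed by between -0.24 (sham replicate 5) and 0.16 (pMCAO replicate 1) on the log2 scale.

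The members differed widely in their spread between libraries. Under TMM scaling the pooled SD within groups, on log2(CPM + 1), was 0.11 for miR-103-3p, 0.14 for miR-425-5p, 0.15 for miR-423-5p, 0.18 for miR-107-3p and 0.21 for miR-652-3p. It was 0.44 for miR-191-5p, 0.45 for miR-423-3p, 0.48 for miR-186-5p and 0.78 for miR-361-5p. The median of the 9 was 0.21, beside 0.30 for all 479 miRNAs and 0.24 for the 251 with a mean of at least 100 CPM, and 5 of the 9 were below either of the latter medians. Counting error alone would give 0.012 for miR-191-5p and miR-103-3p, so the abundance of miR-191-5p did not make it even. miR-423-5p is the reverse case: its SD was no larger than the 0.17 that counting error gives at its depth, so the spread between animals could not be resolved.

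Over all 11 libraries, groups included, miR-103-3p had the SD of rank 2 among those 251 miRNAs, at 0.11, behind miR-134-5p at 0.10. miR-425-5p had rank 36 and miR-107-3p rank 73, and miR-652-3p, at 0.24, was just below the median of 0.25. miR-191-5p, miR-186-5p, miR-423-3p and miR-361-5p had ranks 221, 224, 231 and 240. miR-423-5p has a mean under 100 CPM and was not ranked. These ranks depended on the scaling. Under total counts miR-103-3p had rank 15, miR-107-3p rank 44, miR-425-5p rank 115 and miR-652-3p rank 168, the last with an SD of 0.32 above the median of 0.27, while miR-191-5p, miR-186-5p, miR-423-3p and miR-361-5p had ranks 217, 227, 233 and 239. Under total counts the SD within groups was larger for 8 of the 9, miR-361-5p being the exception, and the members' median rose to 0.26.

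**Figure D3:**
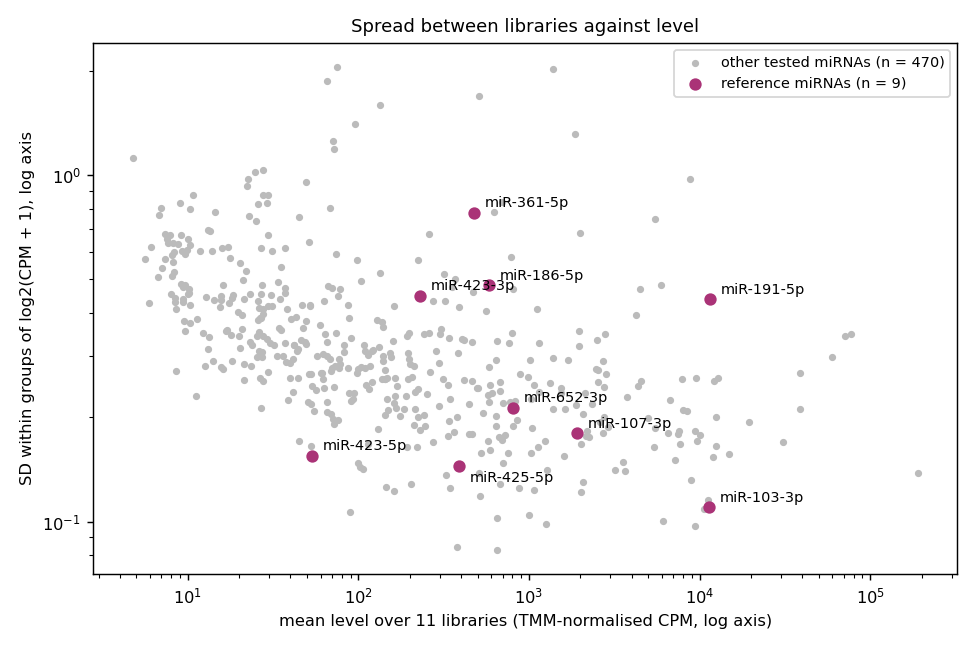
Pooled SD within groups of log2(CPM + 1) under TMM scaling (y axis, log scale) against mean level over the 11 libraries in CPM (x axis, log scale) for the 479 tested miRNAs, with the 9 reference miRNAs in purple. miR-103-3p and miR-191-5p have nearly the same mean level and SDs of 0.11 and 0.44.

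The large SDs came from few libraries. Without sham replicate 5 the SD within groups of miR-191-5p was 0.18 and that of miR-186-5p 0.21. Without sham replicate 4 that of miR-423-3p was 0.20, and without pMCAO replicate 5 that of miR-361-5p was 0.48. Within the pMCAO group alone the SDs of miR-191-5p and miR-186-5p were 0.12 and 0.18. The factor from the geometric mean of the 9 is computed from these same counts, so it is low relative to the TMM factor in these libraries by construction. On the log2 scale it was at -0.24 in sham replicate 5, the lowest in sham, and at -0.15 in sham replicate 4, the next lowest. In pMCAO replicate 5 it was at -0.11, the lowest in pMCAO. The low values were uneven among the members: in sham replicate 5 miR-652-3p was at 131% of the median of the other sham libraries, and in sham replicate 4 miR-186-5p was at 139%.

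**Figure D4:**
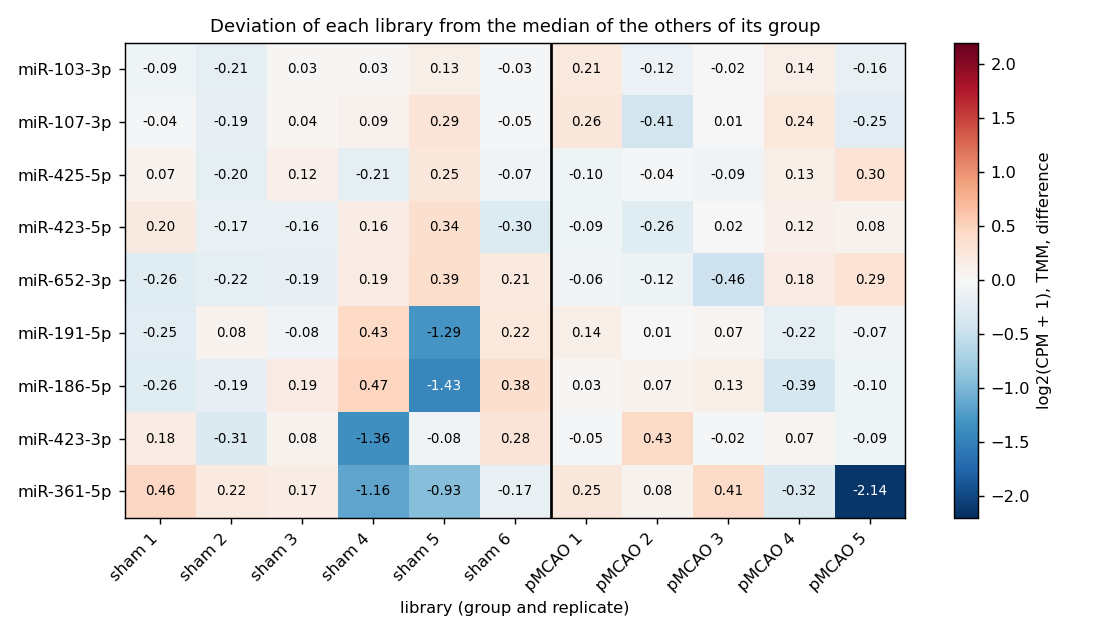
Deviation of each library (columns) from the median of the other libraries of its group for each reference miRNA (rows), on log2(CPM + 1) under TMM scaling, red for higher and blue for lower. The deepest blue cells are miR-361-5p in pMCAO replicate 5 (-2.14), miR-186-5p and miR-191-5p in sham replicate 5 (-1.43 and -1.29) and miR-423-3p in sham replicate 4 (-1.36).

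The opposite arm of the same hairpin was measured in these libraries too. In sham replicate 4 the level of miR-423-5p was 112% of the median of the other sham libraries, where miR-423-3p was at 38.8%. miR-361-3p was at 112% in sham replicate 4, at 101% in sham replicate 5 and at 101% in pMCAO replicate 5, where miR-361-5p was at 44.6%, 52.4% and 22.5%. miR-361-3p rests on 287 to 1042 counts a library, so these values are well above counting error. miR-186-3p was at 74.6% in sham replicate 5 with 48 counts, and miR-191-3p at 59.1% with 17 counts, which is too few for a comparison with the other arm. In that library miR-425-3p was at 57.5% with 28 counts and miR-652-5p at 47.6% with 21 counts. Their members miR-425-5p and miR-652-3p were at 119% and 131% there, and miR-107-5p was at 118% with 171 counts. The low values of miR-423-3p and miR-361-5p were thus not shared by the whole hairpin.

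The 2 members that start with C moved together. The log2 ratio of miR-191-5p to miR-186-5p had an SD of 0.12 over the 11 libraries, the smallest of the 36 pairs of members, although the hairpins lie on different chromosomes. The pair from the same cluster, miR-191-5p and miR-425-5p, had rank 16 at 0.53, and the arms of miR-423 rank 17 at 0.54. The next smallest were miR-103-3p with miR-107-3p at 0.13, miR-425-5p with miR-423-5p at 0.16 and miR-425-5p with miR-652-3p at 0.17. The largest was miR-361-5p with miR-652-3p at 0.93.

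The base at the 5′ end was looked at because of this pair, after the values were seen, and the following is a description with no test. Of the 251 miRNAs with a mean of at least 100 CPM, 222 have a sequence in the RefSeq table. Of these, 39 start with C, miR-191-5p and miR-186-5p included. In sham replicate 5 their median deviation from the median of the other sham libraries was -0.64 on the log2 scale, and 31 of the 39 had their lowest sham value there (79.5%). For the 183 that start with another base the median was 0.06, and 31 had their lowest sham value there (16.9%). The 20 that start with CA, as both members do, had a median of -0.77, and 18 of them were lowest there. Of those that start with CC, CU and CG, 4 of 5, 7 of 10 and 2 of 4 were lowest there. In pMCAO replicate 4, the library in which both members had their lowest pMCAO value, the median of the 39 was -0.22, and 18 of them had their lowest pMCAO value there (46.2%). For the 183 that start with another base the median there was 0.04, and 18 had their lowest pMCAO value there (9.84%). In the other 9 libraries the median of the 39 lay between -0.10 and 0.16. Whether the base itself plays a part in the values of miR-191-5p and miR-186-5p was not tested.

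Ratios between related members need no scaling, because depth cancels within a library. There were 3 such ratios, each tested by an exact two-sided permutation test over the 462 arrangements of the 11 libraries, with Benjamini-Hochberg adjustment over the 3. The ratio of miR-103-3p to miR-107-3p was 5.69, 5.78, 5.88, 5.66, 5.29 and 5.95 in sham replicates 1 to 6. In pMCAO replicates 1 to 5 it was 6.17, 7.40, 6.16, 5.97 and 6.46. The groups did not overlap, though pMCAO replicate 4 exceeded the highest sham library only slightly. The mean log2 ratio of the 6 sham libraries was 2.51 with an SD of 0.06, that of the 5 pMCAO libraries was 2.68 with an SD of 0.12, and the difference was 0.17 (exact permutation p = 0.00433, the smallest this test can give, adjusted p = 0.0130). This is a small shift. The interval of either miRNA's own fold change is wider than it, but describes that miRNA alone and not the ratio. The shift was between 0.12 (without pMCAO replicate 2) and 0.20 when each library was left out, with an exact permutation p of at most 0.0286 after the same adjustment. miR-107-5p, the other arm of the miR-107 hairpin, had a log2 fold change of -0.37 ± 0.16 (SE, edgeR adjusted p = 0.157). On the miR-103 side, miR-103-1-5p was about as low, at -0.40 ± 0.28 (SE, edgeR adjusted p = 0.434), on 6 to 30 counts a library. miR-103-2-5p, with 3 to 17 counts, was not tested, and its mean was 4.81 CPM in sham and 7.91 CPM in pMCAO. Among the 36 pairs of members, lack of overlap was not particular to miR-103-3p with miR-107-3p. The ratios of either to miR-423-3p and to miR-423-5p had none, nor had that of miR-425-5p to miR-107-3p. Reads that end before base 22 match both miR-103-3p and miR-107-3p, and their assignment is not given. Their part in the ratio of these miRNAs was not tested.

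The ratio of miR-423-3p to miR-423-5p ran from 1.57 to 5.76 in sham (median 3.95) and was 4.49, 6.82, 4.33, 4.26 and 4.04 in pMCAO. The groups overlapped. The log2 difference was 0.39 (exact permutation p = 0.255, adjusted p = 0.383), and 0.15 without sham replicate 4. The ratio of miR-191-5p to miR-425-5p ran from 12.2 to 49.7 in sham (median 34.9) and was 31.7, 28.5, 29.9, 23.0 and 22.5 in pMCAO. All pMCAO values were inside the sham range, and the log2 difference was -0.19 (exact permutation p = 0.649, adjusted p = 0.649), or -0.45 without sham replicate 5.

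The choice of reference changes what is read for a target. miR-21a-5p, a miRNA induced in many injured tissues and the one the study follows, has the sequence printed here with its seed in capitals.
miR-21a-5p: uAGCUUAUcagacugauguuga
It was 2.12 ± 0.25 (SE) higher in pMCAO on the log2 scale under TMM scaling (edgeR adjusted p = 0.000395), 2.31 ± 0.27 (SE) under total counts (edgeR adjusted p = 0.000158) and 2.0 ± 0.26 (SE) with factors from the 9 members (edgeR adjusted p = 0.000224). As a plain ratio to a single member, the difference between the group means of the log2 ratio ran from 1.30 (2.46-fold) with miR-423-3p to 2.25 (4.77-fold) with miR-107-3p. With miR-103-3p it was 2.08 (4.24-fold), with miR-191-5p 1.99 (3.97-fold), and with the geometric mean of the 9 it was 1.88 (3.68-fold). The pMCAO mean was higher with every divisor. The groups did not overlap for 6 of the 9 divisors and for the geometric mean, but they did for miR-191-5p, miR-186-5p and miR-423-3p. With miR-361-5p, 1 of the 6, the groups were barely apart. Its highest sham ratio was 8.62 and its lowest pMCAO ratio 8.89, beside 0.261 and 0.412 with miR-103-3p. With miR-191-5p the sham ratios reached 0.453, in sham replicate 5, where the lowest pMCAO ratio was 0.412. These 10 ratios share 1 numerator and are given as a description.

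**Figure D5:**
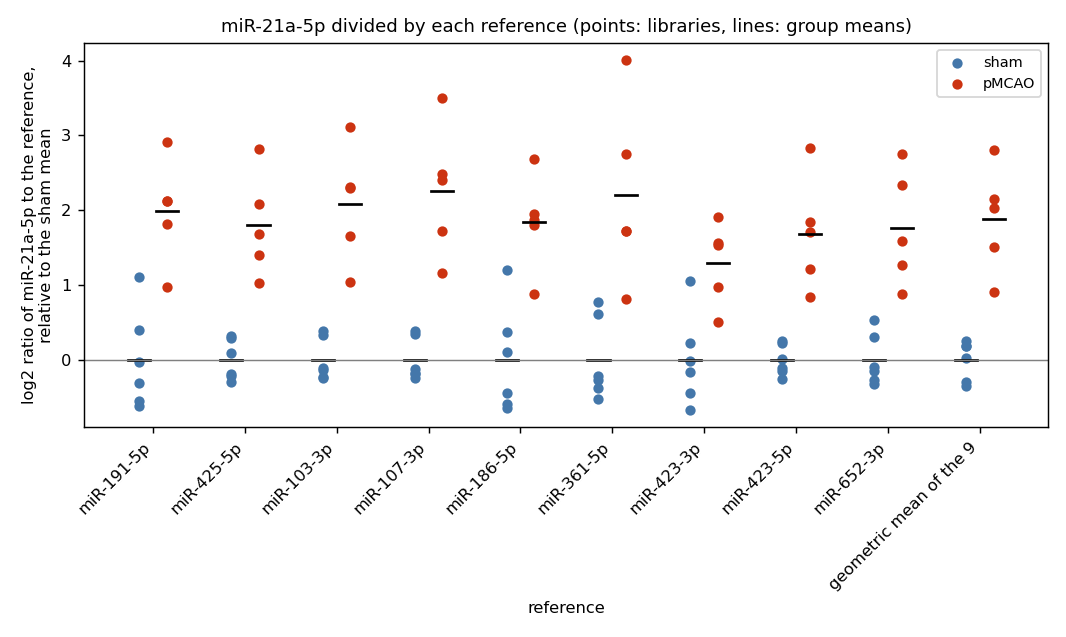
Log2 ratio of miR-21a-5p to each reference miRNA and to the geometric mean of the 9 (x axis), relative to the sham mean (y axis), for the sham (blue, n = 6) and pMCAO (red, n = 5) libraries, with group means as lines. The pMCAO mean is 1.30 above the sham mean with miR-423-3p and 2.25 with miR-107-3p, and sham replicate 5 reaches into the pMCAO range with miR-191-5p and miR-186-5p.

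The stability value M, the mean SD of a member's log2 ratios to the other 8, is the measure commonly used to choose references for qPCR. It gave 0.40 for miR-103-3p, 0.41 for miR-425-5p, 0.43 for miR-423-5p, 0.45 for miR-652-3p and 0.46 for miR-107-3p. It gave 0.54 for miR-191-5p, 0.57 for miR-186-5p, 0.65 for miR-423-3p and 0.82 for miR-361-5p. Outside the 9, the miRNAs with at least 100 CPM whose ratio to the members' geometric mean varied least over the 11 libraries were let-7f-2-3p (SD 0.14), miR-455-3p (SD 0.16) and miR-877-3p (SD 0.17). Of the members, miR-103-3p came closest to that mean with an SD of 0.18.

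Of 10 other miRNAs that serve as references elsewhere, all tested, edgeR called 1 higher and 1 lower under TMM, where 7.10% of all miRNAs were called, with a median log2 fold change of 0.17. miR-92a-3p, of the miR-17-92 cluster, was higher by 0.88 ± 0.21 (SE, edgeR adjusted p = 0.0252), and this call held under total counts. miR-16-5p, a common plasma and tissue reference, was lower by 0.44 ± 0.12 on the log2 scale (SE, edgeR adjusted p = 0.0412), and under total counts it was not called (-0.27, edgeR adjusted p = 0.148). Total-count scaling, which called 9.19% of all miRNAs, also called let-7a-5p (0.37 ± 0.11, SE, edgeR adjusted p = 0.0425) and miR-320-3p (0.57 ± 0.14, SE, edgeR adjusted p = 0.0243) higher in pMCAO, so that 3 of the 10 were called, none of them lower. Of the 8 other arms of the members' hairpins, 7 were tested and 0 were called by edgeR, with a median of -0.04. Among them miR-361-3p had an unadjusted p under 0.05 (-0.37 ± 0.12, SE, edgeR adjusted p = 0.0862), and so had miR-107-5p.

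Marker miRNAs of several cell types were measured in the same libraries, where 7.10% of all miRNAs were called under TMM and 9.19% under total counts. In bulk tissue a change in cell number and a change in the level per cell cannot be told apart. All 5 miRNAs of the myeloid list, of which miR-146a-5p and miR-155-5p are also inducible by inflammatory signals, were called higher in pMCAO under both scalings, and their summed level was 326 to 790 CPM in sham and 870 to 3982 CPM in pMCAO. With factors from the 9 members miR-146a-5p was not called (0.94 on the log2 scale, edgeR adjusted p = 0.0507). Under TMM, 1 of 5 neuronal miRNAs was called lower (miR-132-3p, edgeR adjusted p = 0.0412) and 1 of 3 oligodendrocyte miRNAs (miR-338-3p, edgeR adjusted p = 0.0453). Neither was called under total counts (edgeR adjusted p = 0.188 and 0.136), and with factors from the 9 members miR-124-3p was called lower as well (edgeR adjusted p = 0.0399). Under TMM the other neuronal miRNAs went both ways, with none called. miR-124-3p, miR-128-3p and miR-9-5p were at -0.32, -0.39 and -0.10, and miR-138-5p at 0.21, on the log2 scale. Under total counts miR-9-5p was at 0.07 and miR-138-5p at 0.39, with miR-124-3p and miR-128-3p at -0.14 and -0.21, again with none called. Under TMM the neuronal sum, led by miR-124-3p, was 323338 to 411070 CPM in sham and 276188 to 326067 CPM in pMCAO. The size of this difference depends on the scaling. The mean of miR-124-3p was 209633 CPM in sham and 168488 CPM in pMCAO under TMM, and 197809 and 179813 CPM under total counts. The neuronal miRNAs, which mark brain tissue, were abundant in every library. Of 5 erythrocyte miRNAs 2 were tested and 0 called by edgeR. Their sum was 639 to 4731 CPM in pMCAO, at most 272 CPM in 5 sham libraries and 5370 CPM in sham replicate 1. In that library the 9 members were at 83.2% to 137% of the median of the other sham libraries, with none under 60%. The part of these marker differences in the values of miR-423-3p and miR-423-5p, or in the ratio of miR-103-3p to miR-107-3p, was not tested.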

How the data were processed

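Small RNA was sequenced from 6 sham and 5 pMCAO libraries on an Ion Torrent instrument. The authors removed adapters with the Torrent Suite, checked the reads with FastQC, kept those of 20 to 30 bp, mapped them to mm10 with Bowtie and counted them on miRBase V.21 with HTSeq; the settings, the strand option and the treatment of multiple matches are not given in the sources used here. The deposited values are raw counts per mature miRNA name, so reads outside miRNAs are not in the totals, and there are no molecular identifiers. Shorter reads were removed upstream, which could lower miRNAs with trimmed ends.

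edgeR 4.0.16 in R 4.3.3 was used for the counts (filterByExpr, TMM, glmQLFit and glmQLFTest, Benjamini-Hochberg over 479 miRNAs, threshold 0.05), with limma 3.58.1 as its base, and with DESeq2 1.42.0 as an alternative. Standard errors were derived from the log2 fold change and the F statistic. Spread was computed on log2(CPM + 1), and ratios on counts plus 0.5, with numpy 2.4.6, pandas 2.3.3 and scipy 1.17.1. Each library is taken as 1 animal; the labels number them as replicates and do not state separate animals, so p-values cover the spread between these libraries. No 2 libraries of a group agreed within counting noise (25 pairs, chi-square at least 18.0 times its degrees of freedom). Levels between miRNAs are shares of reads, uncorrected for differences in capture. Sequences were matched by miRNA name to RefSeq, for all 9 members and miR-21a-5p. The scripts were tested on simulated counts. The members and lists were chosen with earlier results of these data known. The miRNAs named are the 9, the other arms of their hairpins, miR-21a-5p, miRNAs of the marker and reference lists where a result turns on them, and the 3 whose ratio to the members' geometric mean varied least; miR-134-5p was named after its value was seen. Alternatives were other scalings, DESeq2, other filters, the replicate number as a block and leaving out each library; leaving out 3 libraries together was added after seeing the data.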

Additional observations from a re-analysis of the deposited data

Results flagged for a closer look

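For each of the 9 members, the 3 ratios and miR-21a-5p in each group, 26 sets of libraries in all, the highest and lowest library was compared with the rest by Dixon's criterion. It marked 6, where chance alone marks about 1 in 20 groups, or 1.3 of 26. On log2(CPM + 1) under TMM scaling, sham replicate 5 was low for miR-191-5p at 12.3 (the other sham libraries at 13.4 to 14.0) and for miR-186-5p at 7.85 (others 9.02 to 9.57). pMCAO replicate 5 was low for miR-361-5p at 6.95 (others 8.78 to 9.32). Sham replicate 4 was low for miR-423-3p at 6.33 (others 7.38 to 7.89), and pMCAO replicate 2 was high for it at 8.49 (others 8.01 to 8.13). The log2 ratio of miR-423-3p to miR-423-5p was also high in pMCAO replicate 2, at 2.77 (others 2.01 to 2.17), and this shares its numerator with the preceding value.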

How the results depend on the processing

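miR-21a-5p kept its direction and its call under every alternative run. No member was called under the alternatives to the TMM fit (including any left-out library) except total counts. Under total counts 43 miRNAs were called higher and 1 lower, 1 of them a member (miR-423-3p), and the log2 fold change turned positive for miR-191-5p (0.108), miR-103-3p (0.0886) and miR-361-5p (0.0757). The number called lower was 4 with upper quartile scaling, 20 with the members' geometric mean, which also turned miR-186-5p to -0.0295, and 8 with no filter. With at least 10 counts in every library 18 miRNAs were called, 3 of them lower; fewer miRNAs were tested. The replicate numbers did not pair the libraries: the correlations of the 5 same-numbered pairs ran from -0.08 to 0.23, and 1 pMCAO library correlated best with its own number. With the number as a replicate block 22 were called, 3 of them lower, and miR-191-5p was at 0.0781. With each library left out, 16 to 36 were called (16 without sham replicate 3 and without pMCAO replicate 2), 13 to 27 higher and 2 to 13 lower, and 0 to 2 members under total counts. The log2 fold change then ran from -0.206 to 0.0518 for miR-191-5p, from -0.0739 to 0.182 for miR-186-5p and from -0.250 to 0.157 for miR-361-5p (0.0420 without sham replicate 1). Without sham replicates 4 and 5 and pMCAO replicate 5 together, an alternative added after seeing the data, 11 miRNAs were called, 9 higher and 2 lower, 0 members under either scaling, and miR-186-5p was at -0.00376. Beyond what an alternative's own construction shows, the cause was not tested. Depth limits miR-423-5p (44 to 98 counts).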

Other observations

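Low values in single libraries were counted over all abundant miRNAs, members included. Of the 251 miRNAs with a mean of at least 100 CPM, 15 (2 of them members) were lower by more than 1 on the log2 scale than the median of the other sham libraries in sham replicate 5, 9 (1 member) in pMCAO replicate 5 against its group and 4 (2 members) in sham replicate 4. The other libraries had 0 to 3 and no member, so that sham replicate 4 was within their range apart from its members. With a limit of -0.8, set after the values were seen, 6 miRNAs were low in sham replicate 4 and 12 in pMCAO replicate 5, and 5 were on both lists (83.3% of the former and 41.7% of the latter): miR-361-5p, miR-29c-3p, miR-99a-5p, miR-434-5p and miR-1249-3p, all but the member chosen after their values were seen. miR-29c-3p was at -1.88 in sham replicate 4 and -2.47 in pMCAO replicate 5, and miR-361-5p at -1.16 and -2.14. In sham replicate 4 miR-434-5p and miR-99a-5p were at -0.81 and -0.97, so the overlap depends on the limit and would be smaller at -1. Such an overlap is not given here for other pairs of libraries.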
